A study of Mus musculus with 28 samples.

Results

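The comparison concerns microglia, the resident macrophages of the brain, that carried the surface protein CD229 in mice fed cuprizone, and it sets the cells that also carried CD11c (CD229+CD11c+) against those that did not (CD229+CD11c-). CD229 is the product of Ly9 and belongs to the SLAM family of immune cell receptors, and CD11c is the integrin subunit encoded by Itgax. The 6 H3K27me3 chromatin immunoprecipitation libraries whose labels give one of these sorts, 3 of each, were chosen from the 28 libraries of the series by their labels alone. The other libraries with region counts were 3 from basal microglia of mice with no cuprizone and 3 from CD229-CD11c- microglia of cuprizone-fed mice, and they enter here for their levels and for the estimate of spread.

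All cells came from adult male wild-type C57BL/6 mice. The 3 cuprizone groups had received 0.2% cuprizone in the diet for 4 weeks. Brains of 2 to 6 mice of a condition were pooled for each sort, and nothing in the labels says that the replicates came from separate mice, and p-values therefore speak only of the variation among these libraries, part of which may be technical. Replicates 1 and 2 of the 3 cuprizone groups carry the tag PE150 in their titles and replicate 3 does not. The labels do not explain the tag, and they give a read length of 150 bases for each of the 12 libraries. Values within the tagged and the untagged libraries are therefore given beside the results.

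H3K27me3, trimethylation of lysine 27 of histone H3, is placed by the Polycomb repressive complex PRC2 and marks genes that are kept silent. It lies in broad domains over developmental regulators and in narrower ones over CpG-rich promoters, and a gene that is switched on usually loses it. Cuprizone is a copper chelator that kills oligodendrocytes and strips myelin, and CD11c is a marker of the microglia that gather in such lesions.

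H3K27me3 tags were counted by the authors in 26326 regions, which had been called on other basal libraries, so a domain present only in cuprizone-exposed cells is not measured. The 6 libraries held between 8934801 and 11362168 tags in the regions, with a median of 160 to 216 tags per region. The regions lay at genes of other lineages far more than at microglial genes. None of 5 defining microglial genes (Cx3cr1, P2ry12, Tmem119, Csf1r and Sall1) was overlapped by a region. A region overlapped 21 of 24 astrocyte genes, 43 of 50 neuronal genes, 19 of 23 oligodendrocyte genes and 22 of 34 lymphocyte genes, among them Gfap, Rbfox3, Olig2 and Cd3e. Among the genes of the sort panel, no region lay nearest to or overlapped Ly9, Itgax, Cd44, Ptprc or Itgam, so these counts give no reading of the genes that define the sort.

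The promoters printed here are chosen examples and do not stand for all affected regions. They are the RefSeq windows (GRCm38.p6) from 250 bases before to 50 bases after a start site, each inside a region that was lower in CD229+CD11c+ cells, and the capitals mark CG dinucleotides, the CpG sites over which Polycomb complexes commonly settle. Pde4a and Cbarp had among the largest falls, Lgals3 is a gene of disease-associated microglia, and Klf9 stands for the longer domains. The Pde4a window is chr9:21165464-21165763 on the plus strand, the Cbarp window chr10:80139318-80139617 on the minus strand, the Lgals3 window chr14:47373610-47373909 on the plus strand and the Klf9 window chr19:23140976-23141275 on the plus strand.
Pde4a: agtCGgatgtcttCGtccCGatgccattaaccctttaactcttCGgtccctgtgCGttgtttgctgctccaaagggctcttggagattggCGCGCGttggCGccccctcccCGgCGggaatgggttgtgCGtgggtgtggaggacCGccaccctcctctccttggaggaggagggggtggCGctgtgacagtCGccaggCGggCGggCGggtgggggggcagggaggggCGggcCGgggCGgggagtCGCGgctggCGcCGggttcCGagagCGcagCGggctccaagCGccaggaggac
Cbarp: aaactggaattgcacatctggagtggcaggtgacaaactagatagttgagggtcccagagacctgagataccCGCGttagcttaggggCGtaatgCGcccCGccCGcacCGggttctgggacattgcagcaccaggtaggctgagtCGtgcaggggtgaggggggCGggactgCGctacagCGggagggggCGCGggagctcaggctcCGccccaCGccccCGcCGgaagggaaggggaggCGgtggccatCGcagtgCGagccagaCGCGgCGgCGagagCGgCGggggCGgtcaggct
Lgals3: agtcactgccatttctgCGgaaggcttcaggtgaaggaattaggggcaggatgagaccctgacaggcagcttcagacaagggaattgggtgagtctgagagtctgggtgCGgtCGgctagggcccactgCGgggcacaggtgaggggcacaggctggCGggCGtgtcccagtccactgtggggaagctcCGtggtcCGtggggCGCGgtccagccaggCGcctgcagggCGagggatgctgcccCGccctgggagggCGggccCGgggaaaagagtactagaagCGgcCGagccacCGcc
Klf9: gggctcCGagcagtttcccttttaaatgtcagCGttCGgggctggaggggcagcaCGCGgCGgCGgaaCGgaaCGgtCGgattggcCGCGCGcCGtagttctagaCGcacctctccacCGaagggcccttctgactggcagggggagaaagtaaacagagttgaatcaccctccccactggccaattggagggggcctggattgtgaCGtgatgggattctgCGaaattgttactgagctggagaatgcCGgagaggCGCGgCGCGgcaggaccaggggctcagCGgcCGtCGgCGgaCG
The 300 bases hold 29 CpG sites at Pde4a, 27 at Cbarp, 18 at Lgals3 and 28 at Klf9. The median was 18 over the promoter windows inside lower regions and 7 over all promoter windows in the table.

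In the fit of all 12 libraries, H3K27me3 was lower in CD229+CD11c+ than in CD229+CD11c- microglia at nearly all regions called different between them. Lower calls were 93.5% of the calls in this fit, 81.0% with the tag as a covariate and 77.9% with replicate number as a block over 9 cuprizone libraries. They were 53.2% with the trend with basal enrichment removed, as described below. Of the 26326 regions, 217 passed an adjusted p of 0.05 (0.824%) in edgeR's quasi-likelihood test with Benjamini-Hochberg adjustment, 203 lower (0.771%) and 14 higher (0.0532%). The promoter of Pde4a, which encodes a cAMP-degrading phosphodiesterase, and a region over Egr2, a transcription factor gene of myeloid cells, had the largest falls. Most changes were small: the median log2 fold change of the 203 lower regions was -0.41, and 7 of them fell at least 2-fold. The median over all regions was 0.01. The plot of level against fold change shows the large folds at weakly marked regions and a dense band of small falls at strongly marked ones.

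**Figure D1:**
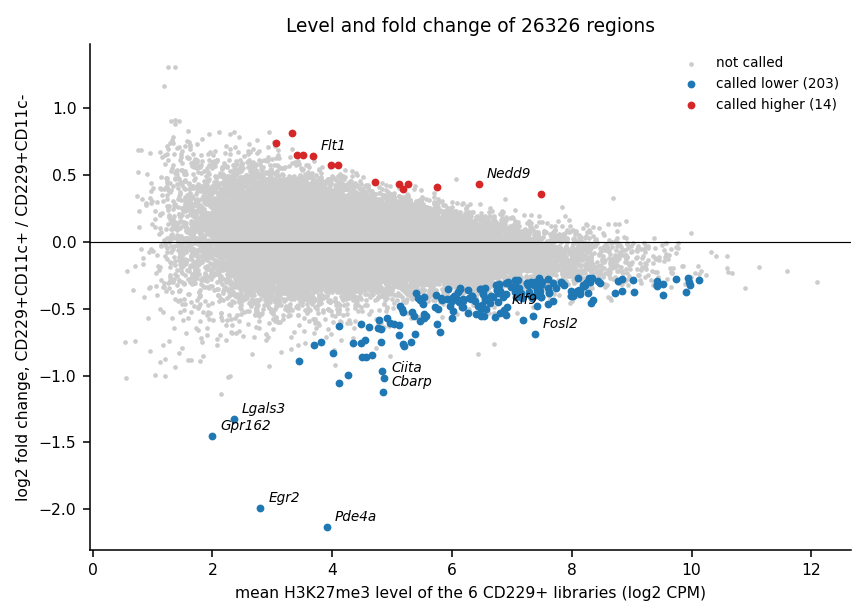
Mean H3K27me3 level of the 6 CD229+ libraries (log2 CPM, x axis) and log2 fold change of CD229+CD11c+ over CD229+CD11c- (y axis) for 26326 regions. Blue points are the 203 regions called lower, red points the 14 called higher and grey points the rest, and 10 regions are named by their nearest gene.

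In all 217 called regions the 3 libraries of one group lay above the 3 of the other. Without regard to the test, 2910 of all regions (11.1%) separated in the lower direction and 2146 (8.15%) in the higher. The number of calls depended on each library: it was 10 without CD229+CD11c+ replicate 1, 9 without replicate 2 and 157 without replicate 3, and it was 64, 39 and 14 without CD229+CD11c- replicates 1, 2 and 3. DESeq2 called 642 regions lower and 26 higher, and total-count scaling in place of TMM called 25 and 3.

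In the tagged libraries alone, 2 against 2, 1141 regions were called lower (4.33%) and 256 higher (0.972%), including 202 of the 203 lower and all 14 higher regions. The untagged pair took no part in those calls. In it, 1100 of the 1141 regions (96.4%) were also lower, with a median log2 fold change of -0.27 against -0.32 in the tagged libraries, and 50.8% of all regions were lower in that pair. Of the 256 higher regions, 201 (78.5%) kept that sign there, beside 49.2% of all regions, with a median of 0.18 after 0.46.

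**Figure D2:**
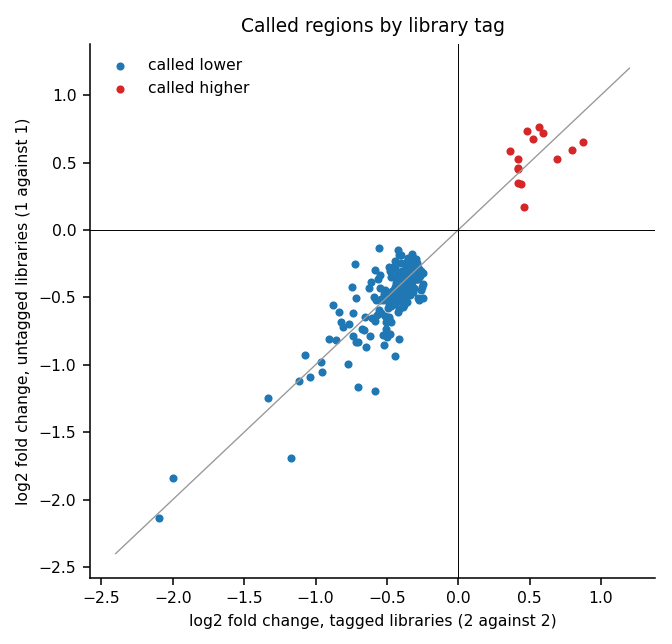
Log2 fold change of the 217 called regions in the tagged libraries (x axis, 2 against 2) and in the untagged libraries (y axis, 1 against 1, with no test). Blue points were called lower and red points higher in all 6 libraries, and since the groups were apart at each of them the signs are fixed by that choice, and the grey line marks equal values.

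At the Pde4a promoter the CD229+CD11c- libraries read 21.5, 21.9 and 30.4 and the CD229+CD11c+ libraries 5.27, 4.85 and 6.54 CPM (tags scaled to a common library size by TMM). The fall was -2.13 ± 0.21 (log2, SE; edgeR adjusted p = 3.5e-05, n = 3 and 3). The region spans chr9:21163796-21167472 and its centre lies 80 bases upstream of the start site. Basal microglia read 14.7 ± 2.0 CPM (SD, n = 3) and CD229-CD11c- cells 11.2 ± 3.5, so the level was highest in one CD229+ subset and lowest in the other. Against basal cells it was higher in CD229+CD11c- by 0.75 (adjusted p = 0.0080) and lower in CD229+CD11c+ by 1.39 on the log2 scale (adjusted p = 0.00056). These contrasts share libraries with the first.

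Egr2 and Lgals3 followed another course across the 4 groups, with the level falling from basal cells to CD229+CD11c- cells and again to CD229+CD11c+ cells. EGR2 is a zinc finger factor of alternatively activated macrophages and of myelinating glia. Its region is intronic with its centre 1545 bases after the start site (chr10:67537781-67541170). It read 8.10, 12.7 and 12.7 CPM in CD229+CD11c- and 2.63, 2.48 and 3.18 CPM in CD229+CD11c+ libraries, a fall of -1.99 ± 0.23 (adjusted p = 0.00027). Basal libraries read 17.6, 13.8 and 18.1 CPM. None of the CD229+CD11c+ values reached those of any other group.

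Lgals3 encodes galectin-3, a sugar-binding protein that disease-associated microglia secrete. Its region (chr14:47372854-47376837) covers the start of the gene and read 5.98, 7.01 and 9.09 CPM in CD229+CD11c- and 2.43, 2.71 and 3.54 CPM in CD229+CD11c+ libraries, against 20.1 ± 1.7 in basal cells. The fall between the subsets was -1.32 ± 0.22 (adjusted p = 0.0072), and the adjusted p was 0.069, 0.082 and 0.061 without CD229+CD11c+ replicate 1, CD229+CD11c+ replicate 2 and CD229+CD11c- replicate 3. Of 47 regions at genes of disease-associated microglia, Lgals3 alone was called (background 0.771% lower), and 31 of the 47 had a fold change above 0, with a median of 0.08. The third region with a CD229+CD11c- mean not above the basal mean was at Gpr162, an orphan receptor gene, which was named after its values were seen. It read 4.53, 5.14 and 7.97 CPM against 2.43, 1.81 and 2.12 CPM (-1.45 ± 0.32, adjusted p = 0.036), and it lost its call without any 1 of the 6 libraries (adjusted p 0.053 to 0.25).

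The other 200 lower regions had a higher mean in CD229+CD11c- than in basal cells. Their usual course was a level near that of basal cells in CD229-CD11c-, a peak in CD229+CD11c- and an intermediate or basal level in CD229+CD11c+ cells. The medians over the 203 regions were 81.8 CPM for basal microglia, 83.1 for CD229-CD11c-, 122 for CD229+CD11c- and 93.9 for CD229+CD11c+ microglia. Against basal cells, 192 of the 203 were called higher in CD229+CD11c- (background 9.52% of all regions) and 71 higher in CD229+CD11c+ (background 4.33%). The 3 comparisons share libraries, so these counts are a description of the levels. Besides Pde4a, Egr2, Lgals3 and Gpr162, the regions lower in CD229+CD11c+ than in basal cells were those nearest to Mir365-2, St8sia6 and Phldb1, 7 in all (background 1.47%).

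**Figure D3:**
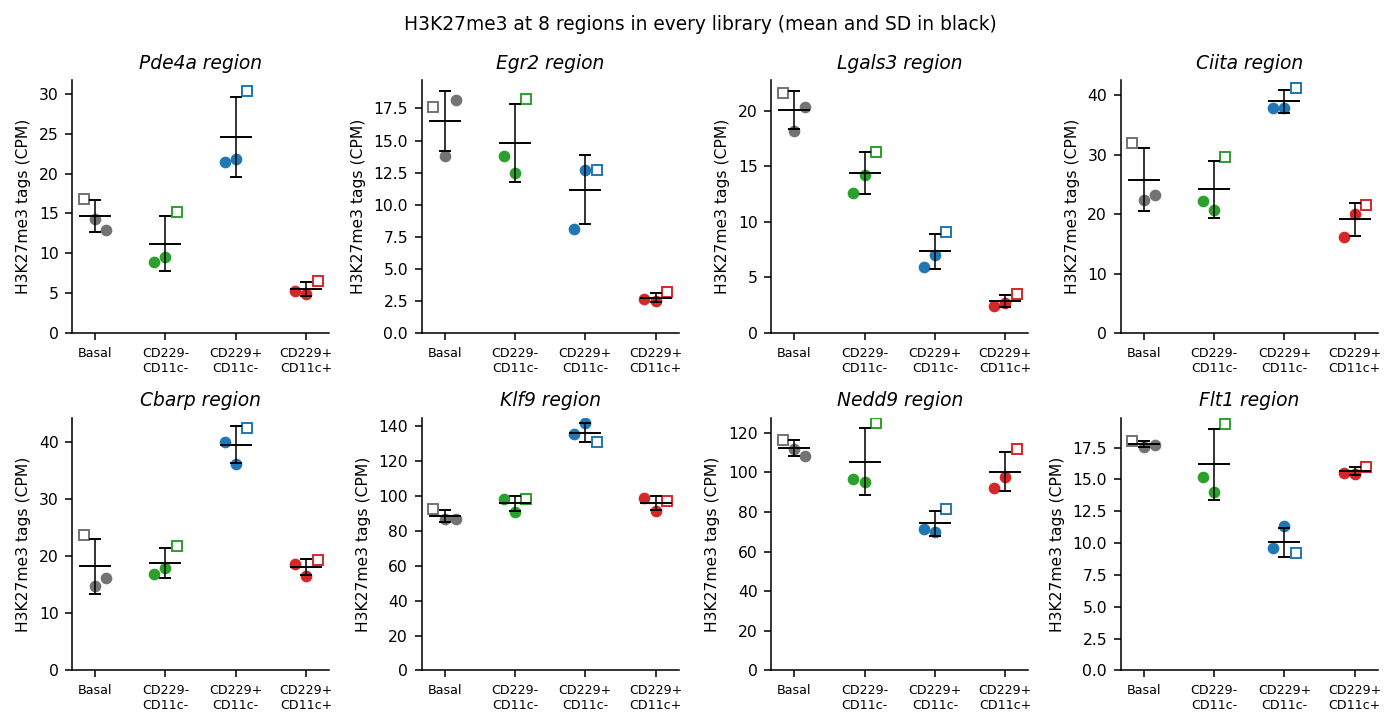
H3K27me3 level (CPM, y axes from 0) at 8 regions in every library of the 4 groups (x axes). Filled circles are libraries with the tag PE150 in the title and open squares those without, black bars show mean and SD (n = 3), and CD229+CD11c+ lies below CD229+CD11c- in 6 panels and above it at Nedd9 and Flt1.

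Ciita and Cbarp both peaked in CD229+CD11c- cells, at about 40 CPM. Their CD229+CD11c+ means were similar, 19.2 and 18.2 CPM, and their basal means were 25.8 and 18.3 CPM. CIITA is the master transactivator of MHC class II genes. An intronic region near its start (chr16:10487211-10494907) read 37.9, 37.9 and 41.3 CPM in CD229+CD11c- and 16.1, 20.0 and 21.5 CPM in CD229+CD11c+ libraries (-1.02 ± 0.15, adjusted p = 0.0040). Basal cells read 25.8 ± 5.3 CPM and CD229-CD11c- cells 24.2 ± 4.8, so the CD229+CD11c+ mean was the lowest of the 4, though not called against basal (adjusted p = 0.11). The adjusted p was 0.053 without CD229+CD11c+ replicate 1. Cbarp encodes a regulator of voltage-gated calcium channels, and its region (chr10:80136884-80140765) read 40.1, 36.1 and 42.5 CPM against 18.6, 16.6 and 19.3 CPM, with 18.3 ± 4.8 in basal cells (-1.12 ± 0.15, adjusted p = 0.0019). The CD229+CD11c+ and basal means of Cbarp thus lay within 1 SD of each other.

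Of 11 regions at genes of antigen presentation, Ciita alone was called (background 0.771% lower), while 10 of the 11 had a fold change below 0, as had 48.2% of all regions, and their median was -0.18. The remaining region that fell at least 2-fold, named after its values were seen, lay at the start of Dst, which encodes a cytoskeletal linker. It read 21.0, 19.5 and 30.0 CPM against 7.50, 12.4 and 13.8 CPM (-1.06 ± 0.24, adjusted p = 0.049). Its adjusted p ran from 0.048 to 0.22 with 1 library left out, and the call held only without CD229+CD11c+ replicate 3.

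The domains at Klf9 and Ak8 kept their call in each of 18 alternative analyses that test for any change, as did Pde4a, Egr2 and Cbarp wherever an adjusted p was given, and they were singled out for this. KLF9 is a Krüppel-like factor induced by glucocorticoid and thyroid hormone, and the domain around Klf9 (chr19:23116778-23147525) read 136, 142 and 131 CPM in CD229+CD11c- against 99.1, 91.3 and 97.2 CPM in CD229+CD11c+ libraries (-0.51 ± 0.07, adjusted p = 0.0020). The domain at Ak8, an adenylate kinase gene, read 235, 213 and 227 CPM against 164, 161 and 164 CPM (-0.47 ± 0.06, adjusted p = 0.0020). In basal cells they read 88.7 ± 3.5 and 147 ± 6 CPM.

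Among the cAMP pathway genes, 2 of 85 regions were lower (background 0.771%) and none higher, and their median was 0.015 beside 0.0076 over all regions. The second beside Pde4a was the promoter of Adcy6, an adenylyl cyclase gene, at 28.1 ± 2.7 CPM in CD229+CD11c- and 16.6 ± 1.8 CPM in CD229+CD11c+ cells (-0.76 ± 0.14, adjusted p = 0.013). Among immediate-early transcription factor genes 2 of 77 were lower, Egr2 and Fosl2. FOSL2 is a Fos-family subunit of the AP-1 complex. The region upstream of Fosl2 read 183, 191 and 243 CPM against 117, 119 and 145 CPM (-0.69 ± 0.13, adjusted p = 0.024), and without 1 library the fold change ran from -0.80 to -0.55.

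Of the genes that encode Polycomb subunits and H3K27 demethylases, 1 of 52 regions was lower (1.92% against 0.771% of all regions). It lies in an intron of Bmi1 (-0.99 ± 0.20, adjusted p = 0.023), a core subunit of PRC1, where the libraries read 22.8, 21.9 and 32.3 CPM against 11.1, 11.96 and 15.3 CPM. Kdm6b, an H3K27 demethylase gene, had 3 nearest regions, none of them called. The region with the smallest p read 20.0 ± 2.1 and 14.0 ± 3.4 CPM (-0.50 ± 0.17, adjusted p = 0.20). Of the 52 regions, 37 (71.2%) had a fold change below 0, against 48.2% of all regions, with a median of -0.07.

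Falls at domains over developmental regulators were small and even between libraries. Of 240 regions at homeobox and Pax genes 8 were called lower and none higher (3.33% lower). Of 220 at other developmental transcription factors 4 were lower and none higher (1.82%). The share over all regions was 0.771%, and the list medians were 0.02 and -0.03. Here and for the other gene lists, 0.771% is not matched for the kind of region. The share lower was 2.45% over regions within 5 kb of a start site and 4.01% over those of at least 50 kb. It was 4.03% in the top decile of basal enrichment over input. With the trend with basal enrichment removed, no region of these 2 lists was called lower, of 25 in all. Gbx1, a homeobox gene of the hindbrain, read 165 ± 10 CPM in CD229+CD11c- and 124 ± 2 in CD229+CD11c+ cells (-0.42 ± 0.07, adjusted p = 0.0072). Lhx2, a LIM homeobox gene, read 920, 933 and 945 against 772, 755 and 778 CPM (-0.28 ± 0.06, adjusted p = 0.029). Hmx3 read 381, 382 and 382 against 313, 322 and 302 CPM, and Bsx 317, 328 and 346 against 253, 262 and 272 CPM.

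Gata2, a blood-stem-cell factor, fell by 0.38 ± 0.08 (adjusted p = 0.032), Tbx4, a hindlimb factor, by 0.29 ± 0.06 (adjusted p = 0.034), Foxc1 by 0.30 ± 0.07 (adjusted p = 0.040) and Tfap2e by 0.31 ± 0.07 (adjusted p = 0.044). All libraries of the groups were apart at each, as at all 217 called regions and at 11.1% of all regions in this direction. The 4 Hox clusters, the most strongly marked regions named here, did not pass the test with all 12 libraries in the model. The Hoxa cluster read 2137 ± 183 against 1683 ± 92 CPM (-0.34 ± 0.09, adjusted p = 0.078), Hoxb 2366 ± 21 against 2081 ± 41 (-0.18 ± 0.07, adjusted p = 0.21), Hoxc 3330 ± 21 against 2860 ± 68 (-0.22 ± 0.06, adjusted p = 0.087) and Hoxd 1690 ± 17 against 1448 ± 50 (-0.22 ± 0.07, adjusted p = 0.11). In the tagged libraries alone all 4 passed as lower (-0.32 to -0.18, edgeR adjusted p 1.79e-06 to 0.025), as they did with the tag as a covariate, with the replicate block and with the 6 CD229+ libraries alone. The sign of all 4 changed when the trend with basal enrichment was removed, to between 0.04 and 0.11, and with the replicate block added Hoxb passed as higher (0.12, adjusted p = 0.018).

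Growth factor genes had 5 of 164 regions lower (3.05% against 0.771% of all regions) and none higher, with a median of 0.02. The share lower was 2.45% over all regions within 5 kb of a start site. With the trend with basal enrichment removed, no growth factor region was called lower. Tgfb2, a TGF-beta ligand, read 99.1, 101 and 115 against 73.5, 66.0 and 82.7 CPM (-0.50 ± 0.09, adjusted p = 0.014), and basal cells read 81.3 ± 5.6 CPM. The Wnt ligand genes Wnt1 (-0.37 ± 0.08, adjusted p = 0.032), Wnt10a (-0.29 ± 0.06, adjusted p = 0.034) and Wnt7b (-0.30 ± 0.07, adjusted p = 0.034) were lower. The Wnt10a value became 0.01 with the trend removed. Of 80 regions at semaphorin, plexin and netrin genes, which guide axons and also act in immune cell contact, 3 were lower (3.75%). They were at Plxna1, Sema4b and Plxnd1, with fold changes of -0.32, -0.48 and -0.62 and adjusted p from 0.020 to 0.046.

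Regions at genes of lineages other than microglia had few calls in number. They are set here against 0.771% lower over all regions and 2.45% over those within 5 kb of a start site. Neuronal genes had 2 of 139 lower (1.44%; Slc6a4 and Elavl3), astrocyte genes 2 of 70 (2.86%; Hes5 and Lfng), oligodendrocyte genes 1 of 39 (2.56%; Olig2), endothelial and mural genes 2 of 82 (2.44%; Foxc1 and Ocln), and 75 regions at lymphocyte genes had no call. Neutrophil and dendritic cell genes had 2 of 20. These were Zbtb46, a factor of classical dendritic cells, with 46.6 ± 3.7 against 27.1 ± 3.1 CPM (-0.78 ± 0.12, adjusted p = 0.0043), and Bcl11a, with 125 ± 22 against 84.8 ± 1.6 CPM (-0.56 ± 0.11, adjusted p = 0.023). Zbtb46 read 23.3 ± 2.4 CPM in basal cells. Over the homeostatic microglia, interferon, SLAM, pattern recognition, cell cycle inhibitor, adhesion, peripheral macrophage and lymphocyte lists together, edgeR called 0 of 318 regions at the adjusted threshold, 36 passed an unadjusted p of 0.05, and DESeq2 called 10. Over all 26326 regions the same counts were 217, 3381 and 668, so few calls were to be looked for in 318 regions.

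Pparg, the nuclear receptor of lipid-handling macrophages, was the 1 region called of 21 at lipid genes (4.76% lower against 0.771% of all regions). The 21 had a median log2 fold change of -0.04, and 9 of them were above 0. The Pparg promoter read 36.2 ± 4.6 against 24.3 ± 2.2 CPM (-0.57 ± 0.12, adjusted p = 0.031). The promoter of Kcnip3, a potassium channel interacting protein, read 32.7, 32.0 and 33.1 against 16.1, 19.7 and 18.6 CPM (-0.85 ± 0.14, adjusted p = 0.0075), with 7.54 ± 1.96 in basal cells. Neurl1a, a ubiquitin ligase of Notch signalling, Nlgn2, a neuroligin of inhibitory synapses, and Cux2, a homeobox gene of upper-layer neurons, fell by 0.97, 0.86 and 0.77 on the log2 scale. Hap1 and the regions nearest to Lbr and Gpbp1 fell by 0.75, 0.86 and 0.76. The authors' deposited table lists Pde4a, Egr2 and Kcnip3 with an adjusted p of 1 beside unadjusted p-values of 2.23e-25 for Pde4a and 8.81e-13 for Egr2. The same authors' deposited table holds 699 regions with an adjusted p under 0.05, 668 lower and 31 higher, and the lowest level among them was 26.2 CPM. It lists 16333 regions at an adjusted p of 1, and the 54 of these with an unadjusted p under 0.001 had levels of at most 25.4 CPM, below the lowest level of any region under the threshold, so that a value of 1 there is no sign of an unchanged region.

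The 14 higher regions had a level in CD229+CD11c+ near that of basal cells and a lower one in CD229+CD11c-. Their median level was 22.9 CPM for basal, 24.3 for CD229-CD11c-, 18 for CD229+CD11c- and 25.5 for CD229+CD11c+ cells, and 9 of the 14 were called lower in CD229+CD11c- than in basal cells (background 3.47%). Both comparisons use the same CD229+CD11c- libraries, so this count is a description of the levels. An intronic region of Flt1, a VEGF receptor gene, read 9.65, 11.3 and 9.20 CPM in CD229+CD11c- and 15.5, 15.5 and 16.01 in CD229+CD11c+ libraries (0.64 ± 0.15, adjusted p = 0.040). Basal libraries read 17.6 to 18.01 CPM. Nedd9, a focal adhesion scaffold gene, read 71.6, 69.9 and 81.6 against 92.2, 97.4 and 112 CPM (0.43 ± 0.10, adjusted p = 0.041), with 112 ± 4 in basal cells. Neither call held without any 1 of the 6 libraries.

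At Neurl1b, Fgfbp1, Chd6 and Plekhb2 the lowest of the 4 group means was also that of CD229+CD11c- cells, with log2 fold changes from 0.39 to 0.45 and adjusted p from 0.024 to 0.048. The region nearest to Utp14b read 147, 145 and 178 CPM in CD229+CD11c- and 200.9, 200.1 and 200.8 CPM in CD229+CD11c+ libraries, against 143 ± 5 in basal cells (0.36 ± 0.08, adjusted p = 0.037). Of the 14 regions, 9 had a CD229+CD11c+ mean above the basal mean, and this was the 1 called higher than basal (background 4.33%).

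A further set of regions had stood out in other comparisons of these libraries, and most of these had low levels in both CD229+ subsets and did not pass the test between them. At Bhlhe40, a circadian and myeloid repressor gene, the level was 13.2 ± 2.1 in CD229+CD11c- and 10.4 ± 2.8 CPM in CD229+CD11c+, against 35.3 ± 3.9 in basal cells (difference between subsets -0.33 ± 0.17, adjusted p = 0.44). Ch25h, which makes 25-hydroxycholesterol, read 9.12 ± 1.47 and 8.36 ± 0.50 against 18.4 ± 3.8 CPM (-0.13 ± 0.18, adjusted p = 0.83). Igf1 is a growth factor gene of lesion microglia, and the region nearest to it does not overlap it. That region read 4.31 ± 0.20 and 3.78 ± 0.56 against 9.80 ± 1.66 CPM (-0.18 ± 0.27, adjusted p = 0.85). Axl, a receptor for apoptotic cells, read 5.11, 3.97 and 6.73 against 3.75, 2.14 and 4.86 CPM (-0.53 ± 0.32, adjusted p = 0.51). The groups overlap at these 4 genes.

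A few of this set came close to the threshold. Where a gene had several regions, the region with the smallest p is given, so it need not stand for the gene. Pdgfa had 8 nearest regions, Plxnc1 7, Dkk2 5 and Inf2 4, and none of them was called. Inf2, a formin, read 13.8, 15.8 and 17.4 against 8.81, 10.5 and 12.03 CPM (-0.58 ± 0.14, adjusted p = 0.056), and Plxnc1 and Dkk2 had values of -0.52 (adjusted p = 0.052) and -0.50 (adjusted p = 0.064). Pdgfa, a growth factor for oligodendrocyte precursors, read 9.42 ± 1.71 against 5.71 ± 1.61 CPM (-0.71 ± 0.20, adjusted p = 0.095). Oasl2, an interferon-induced gene, had the opposite sign, with 56.0 ± 7.0 against 77.5 ± 9.9 CPM (0.47 ± 0.13, adjusted p = 0.10) and 128 ± 15 in basal cells. Apoe was split by 1 library: the CD229+CD11c+ libraries read 2.03, 14.2 and 3.10 CPM against 6.56, 6.19 and 7.97 CPM (-0.15 ± 0.44, adjusted p = 0.93), and the fold change was -1.41 without CD229+CD11c+ replicate 2.

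The lower regions were drawn from the strong, promoter-proximal part of the H3K27me3 landscape. Their median length was 16999 bp against 6387 bp over all regions, and their median distance to a start site 3632 bp against 24396 bp. Their median level was 108 CPM against 18.9 CPM over all regions. A test on counts can call smaller folds where tags are many, and the smallest fall called was 0.27 (log2). The shares of calls by class therefore also depend on the number of tags per region. Of the 203, 124 (61.1%) lay within 5 kb of a start site, where 19.2% of all regions lie, and 1 of the 14 higher regions did. Among 524 regions of at least 50 kb, 21 were lower (4.01% against 0.771% of all regions) and none higher. By decile of H3K27me3 enrichment over input in other basal libraries, 106 of 2633 regions of the top decile were called lower (4.03%) and 1 of 2633 in the bottom decile, and the median log2 fold change went from 0.04 in the bottom to -0.08 in the top decile. It went from 0.05 to -0.09 in the tagged and from 0.04 to -0.11 in the untagged libraries.

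**Figure D4:**
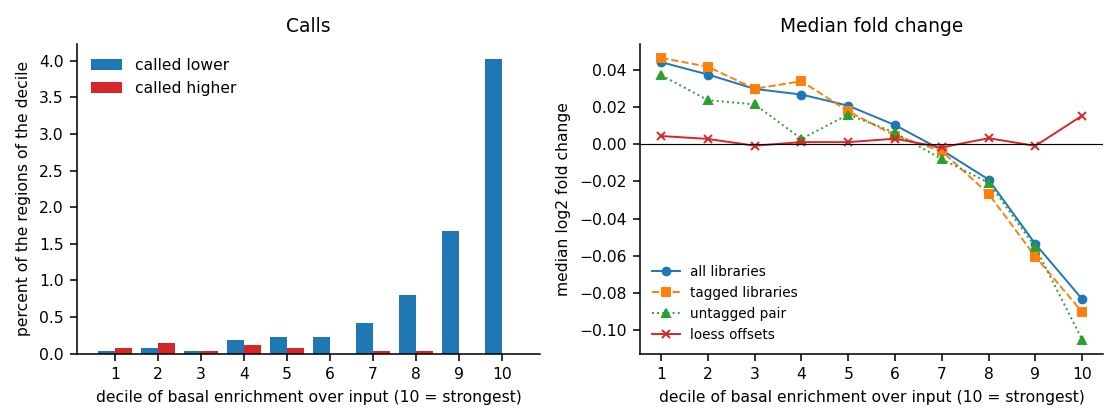
Percent of regions called lower or higher (left) and median log2 fold change of CD229+CD11c+ over CD229+CD11c- (right) by decile of basal H3K27me3 enrichment over input (x axes, 10 the strongest). Calls reach 4.03% lower in decile 10, and the median is lower in decile 10 than in decile 1 in all libraries, the tagged and the untagged ones, but not with loess offsets, which remove this trend by construction.

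With the trend removed by loess offsets, 25 regions were lower and 22 higher, so that 53.2% of the calls were lower against 93.5% without offsets. Of those, 25 and 5 were among the calls without offsets. The tag counts show the trend directly. Regions of the top decile held 20.0, 20.0 and 20.2% of a library's region tags in CD229+CD11c- and 18.3, 18.1 and 18.3% in CD229+CD11c+ cells, a difference of -1.85 percentage points. Basal and CD229-CD11c- libraries held 16.3 ± 0.7 and 16.8 ± 0.3%. For regions within 5 kb of a start site the shares were 26.0 ± 0.1 and 24.7 ± 0.1%, and for regions of at least 50 kb 20.8 ± 0.4 and 20.0 ± 0.2%. In each case the 3 libraries of one group lay above the other 3, and the two-sided exact permutation test gave p = 0.1, the smallest it can give here. Counts scaled within the regions cannot show whether the total amount of the mark per cell differed.

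Promoter windows inside the lower regions were rich in CpG. Of the 203 regions, 134 held at least 1 of the RefSeq promoter windows, against 5138 of all 26326. The 250 windows in them had a median of 18 CpG sites and a ratio of observed to expected CpG of 0.64, against 8 sites and 0.39 in the 7363 windows of regions that were not called. No window lay in a higher region. AP-1, cAMP response element, PU.1 and EGR motifs were searched on both strands, and none of the 4 contains another. The AP-1 pattern TGANTCA, with any base as N, was in 15 windows of lower regions (6.0%). It was in 7.81% of all windows and 7.56% of windows in regions not called. The Klf9 window printed above holds it as TGAATCA, and with N free a match need not be an AP-1 site. The cAMP response element TGACGTCA was in 10 windows of lower regions (4.0%), 1.79% of all windows and 1.2% of windows in regions not called. In the same order, the PU.1 motif GAGGAAGT was in 1 (0.4%), 3.2% and 2.23%. The EGR motif GCGTGGGCG was in 3 (1.2%), 0.612% and 0.475%, so the shares in lower regions rest on few windows. The 250 windows were those of 195 genes in 134 regions. The cAMP response element and the EGR motif contain CG, and the AP-1 and PU.1 patterns do not. The sets of windows were not matched for CpG content, so these shares cannot be read as enrichment of a motif. Apart from the TGAATCA match at Klf9, none of the 4 motifs is in the windows of Pde4a, Cbarp, Lgals3 or Klf9.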

How the data were processed

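H3K27me3 tags of 12 libraries were analysed over 26326 regions of mm10. The raw tag counts per region were deposited by the authors. Regions had been called with HOMER on basal replicates 1 and 2 against input, per the file headers, which also give a region size (bp) and a peak score that the authors computed. The region at Bhlhe40 was added by the authors. The authors' deposited table further holds a normalised signal per library, a log2 fold change and a p-value for this comparison, and the deposited basal table holds log2 enrichment over input, which set the deciles used here. The submitters' processing notes name fastp 0.20.0, HOMER, DESeq2, STAR 2.7.0f and Bowtie2 2.3.4.1 without their role for each file. Deposited p-values and signal were used for description only.

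Counts were fitted with edgeR 4.0.16 in R 4.3.3 (filterByExpr, which removed 0 regions, TMM scaling, robust quasi-likelihood), with all 12 libraries in 1 model of 4 groups, and p-values were Benjamini-Hochberg adjusted over all regions at 0.05. Levels are CPM with TMM scaling. DESeq2 1.42.0 was an alternative. The code was tested on simulated data. A further microglial marker is not reported here. The untagged pair was compared with a pseudocount of 0.5 CPM. Named regions are the 12 largest called falls and up to 12 largest called rises (level at least the median region, groups apart, gene not a clone name), for each of 26 gene lists the 4 called regions with the smallest p or otherwise the 1 with the smallest p, the sort panel, and regions followed from earlier results. For a followed gene with several nearest regions, or overlapping ones at Ace, the region with the smallest p was taken. Each Hox cluster is given by its longest region. Gpr162, Dst, Klf9 and Ak8 were named after their values were seen. The comparison, gene lists and rules were chosen with earlier results of these data known. Regions carry the nearest gene of the deposited annotation, and 40 gene names changed into dates by a spreadsheet were resolved through RefSeq accessions (GRCm38.p6). The alternatives changed scaling, filter, libraries, pairing, tag, trend, tool and threshold. Same-numbered replicates of the 2 CD229+ groups had deviations correlated at 0.20, 0.08 and 0.33, and those of each with CD229-CD11c- 0.13 to 0.46. Since 1 pair of the groups compared was not over 0.1 and no label states a pairing, the numbers were not taken to pair the libraries. Between the 2 CD229+ groups, tagged libraries of unlike number correlated at 0.09 and 0.10, and tagged with untagged ones at -0.25 to -0.14. Deviations are taken from the group mean, so these values are not independent. The deviations thus also went by the tag, which the main model leaves out and which is a covariate in an alternative.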

Additional observations from a re-analysis of the deposited data

How the results depend on the processing

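Counts of calls, against 203 lower and 14 higher of 217 in all, were 25, 3 and 28 with total-count scaling (median over all regions shifted by 0.07, log2). They were 340, 14 and 354 with TMMwsp, 597, 34 and 631 with the 6 CD229+ libraries alone, 1555, 365 and 1920 with the PE150 tag as a covariate, 1141, 256 and 1397 in tagged libraries alone, 642, 26 and 668 with DESeq2, 21, 0 and 21 at an adjusted p under 0.01, and 1, 0 and 1 for a tested fold of at least 2 (edgeR's glmTreat). At an unadjusted p under 0.05, 3381 regions passed in the edgeR fit. With the replicate block they were 1713, 486 and 2199 over 9 cuprizone libraries and 2168, 641 and 2809 over 6 libraries. With loess offsets they were 25, 22 and 47, and with loess offsets and the replicate block 333, 334 and 667. Leaving out 1 library gave 9 to 157 calls, 9 to 154 lower and 0 to 3 higher. No filter and a mean count of at least 50 gave 217 and 177. The share of tags differed by -1.14 and -2.42 points for the top 5% and top 20% of enrichment, by -1.39 and -0.39 points for regions of at least 20 and 100 kb, and by -0.29 and -1.76 points for start sites within 1 and 10 kb. Leaving out 1 library gave -1.91 to -1.77 for the top decile, -1.02 to -0.67 for 50 kb and -1.35 to -1.24 for 5 kb.

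Of 52 named regions that were called, 51 kept their sign in each alternative. Their call was kept by 5 in each alternative that tests for any change and gave an adjusted p. DESeq2 gave no adjusted p for Pde4a, Egr2 and Cbarp among these 5, and 31 of the 52 were compared in it. Without 1 library, 6 (CD229+CD11c+ replicate 2) to 31 (CD229+CD11c+ replicate 3) of the 52 kept their call. Of the 33 named regions not called, 16 and 18 gained a call with the replicate block over 9 and 6 libraries. The reversed values, with loess offsets and then with the replicate block added, were 0.010 and 0.016 for Wnt10a, 0.042 and 0.049 for Hoxa, 0.11 and 0.12 for Hoxb, 0.040 and 0.044 for Hoxc, 0.053 and 0.055 for Hoxd, 0.093 and 0.10 for the region overlapping Ace, and 0.098 and 0.10 for Ajuba. Apoe was 0.31 in tagged libraries, 0.036 with loess offsets, and -1.41 to 0.27 with 1 library left out (0.20 without CD229+CD11c+ replicate 3). Irf7 was -0.39 in tagged libraries and -0.32 to 0.26 with 1 library left out (-0.018 without CD229+CD11c- replicate 3). The cause of these changes was not tested. Median fold changes of the region classes were recomputed with total-count scaling, in the tagged libraries and with loess offsets, and the other planned settings were not run for them.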
